A study of Danio rerio with 4 samples.

Results

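The genes of the small (40S) ribosomal subunit proteins were compared between heads of noc4l mutants and their siblings at 5 dpf, in RNA, in ribosome footprints and in translation efficiency. Members were the genes of the Ribo-seq table whose symbol reads as rps with a number, with or without a letter or copy suffix, or rpsa or fau, and kinases whose symbol starts with rps6k were left out. This gave 34 members among the 25196 genes of that table, and all 34 were found by ID in the RNA-seq table, which holds 26662. The symbol fau is not used in the table, whose copies are named faua and faub, and rps20 was not among the symbols found, so these 3 are not members.

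Noc4l is a nucleolar protein that works with Nop14 and Emg1 in making 18S rRNA and the 40S subunit, and the comparison asks how the genes for the protein part of that subunit behaved in its mutants. The mutants carry a small Cas9-induced deletion in the fourth exon of noc4l, made in the AB strain, which shortens the protein. The controls are siblings that GEO's labels give as WT, and whether they include heterozygotes is not stated. Fish of both groups were untreated. Each of the 4 conditions, RNA-seq and Ribo-seq of sibling and mutant heads, has 1 library, heads for the 2 assays were collected separately, and the number of heads in a library is not stated. There is therefore no replicate check and no test of any difference. Intervals given below are 95% intervals that cover counting error only.

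In a vertebrate ribosome each small-subunit protein is present in a single copy, bound to 18S rRNA in the head, the body or the platform of the particle. The head swivels as tRNA and mRNA move, the body holds the decoding centre and the mRNA entry site, and the platform lies by the mRNA exit. The mRNAs of these proteins begin with a tract of pyrimidines at the 5′ end, the TOP motif, through which the kinase mTOR and the protein LARP1 adjust their translation together. In human, haploinsufficiency of several of them causes Diamond-Blackfan anaemia, a ribosomopathy.

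Total counts were 15018459 and 17394982 in the RNA-seq libraries of siblings and mutants, and 12180999 and 19823803 in the Ribo-seq libraries. A group of 4 loci took 51.1% of sibling and 19.0% of mutant footprint counts, so libraries were scaled by TMM, a method that centres each assay on its typical gene. noc4l itself had 443 RNA counts in siblings and 45 in mutants, and 93 and 15 footprint counts. Markers of neurons held 0.178% of RNA counts in siblings and 0.186% in mutants. Of footprint counts outside the 4 loci they held 0.406% and 0.425%, and 0 of 8 differed by 2-fold in either assay. No marker fell under 3 counts in any library. Markers of organs behind the head were present as well. Exocrine pancreas markers were at least 2-fold lower in mutants for 8 of 8 genes in each assay, and went from 0.647% to 0.035% of RNA counts. Of 8 liver markers, 4 were lower and 1 higher in RNA, 8 were lower in footprints, and 5 were lower in translation efficiency (median log2 ratio -2.24). Of 12 genes of proliferating cells, 2 were lower in RNA and 8 in footprints, with median log2 ratios of -0.81 and -1.19. Skeletal muscle markers differed in sign between assays, with medians of 0.42 in RNA and -0.66 in footprints, where 1 of 7 was lower at 2-fold, and 3 of 7 were lower in translation efficiency (median -0.94). Of 8 markers of lens and retina, 1 was lower in RNA and 2 in footprints, and of 5 skin markers 0 differed by 2-fold. The part that such differences in tissue content had in the ratios of ribosomal protein genes was not tested, and in bulk heads fewer cells of a type and less RNA per cell cannot be told apart.

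RNA of the small-subunit genes was slightly lower in mutants across nearly the whole set. Of the 34 members, 33 had a ratio of mutant to sibling below 1 with an interval that also lay below 1, and the exception was rps27l. The median log2 ratio was -0.41, against 0.01 over the 17243 genes with at least 100 counts, and all 34 members passed that minimum in each assay. Most differences were modest. At a ratio of 2 or more, the size used here to call a gene higher or lower, 1 member was higher (rps27l) and 1 lower (rps9), beside 3.14% of measured genes called higher and 6.16% called lower. At 1.5-fold 8 members were lower, beside 12.6% of measured genes. Summed over the 34 genes, RNA counts were 349302 in siblings and 322038 in mutants, which is 2.33% and 1.85% of each library.

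rps9, whose protein sits by the mRNA entry site of the body, had the lowest RNA ratio. It had 15721 counts in siblings and 8671 in mutants, a log2 ratio of -1.15 (-1.19 to -1.11). rps14, a platform protein whose loss is tied to the 5q- syndrome in human, had 7482 and 5564 counts (-0.72, -0.77 to -0.67). Both lay below the rest of the members described here. At the other end of the members that were lower, rps12, a protein of the head, had 7889 and 8704 counts, a log2 ratio of -0.15 (-0.20 to -0.11), and rpsa had 28860 and 30369 counts (-0.22, -0.24 to -0.20).

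**Figure D1:**
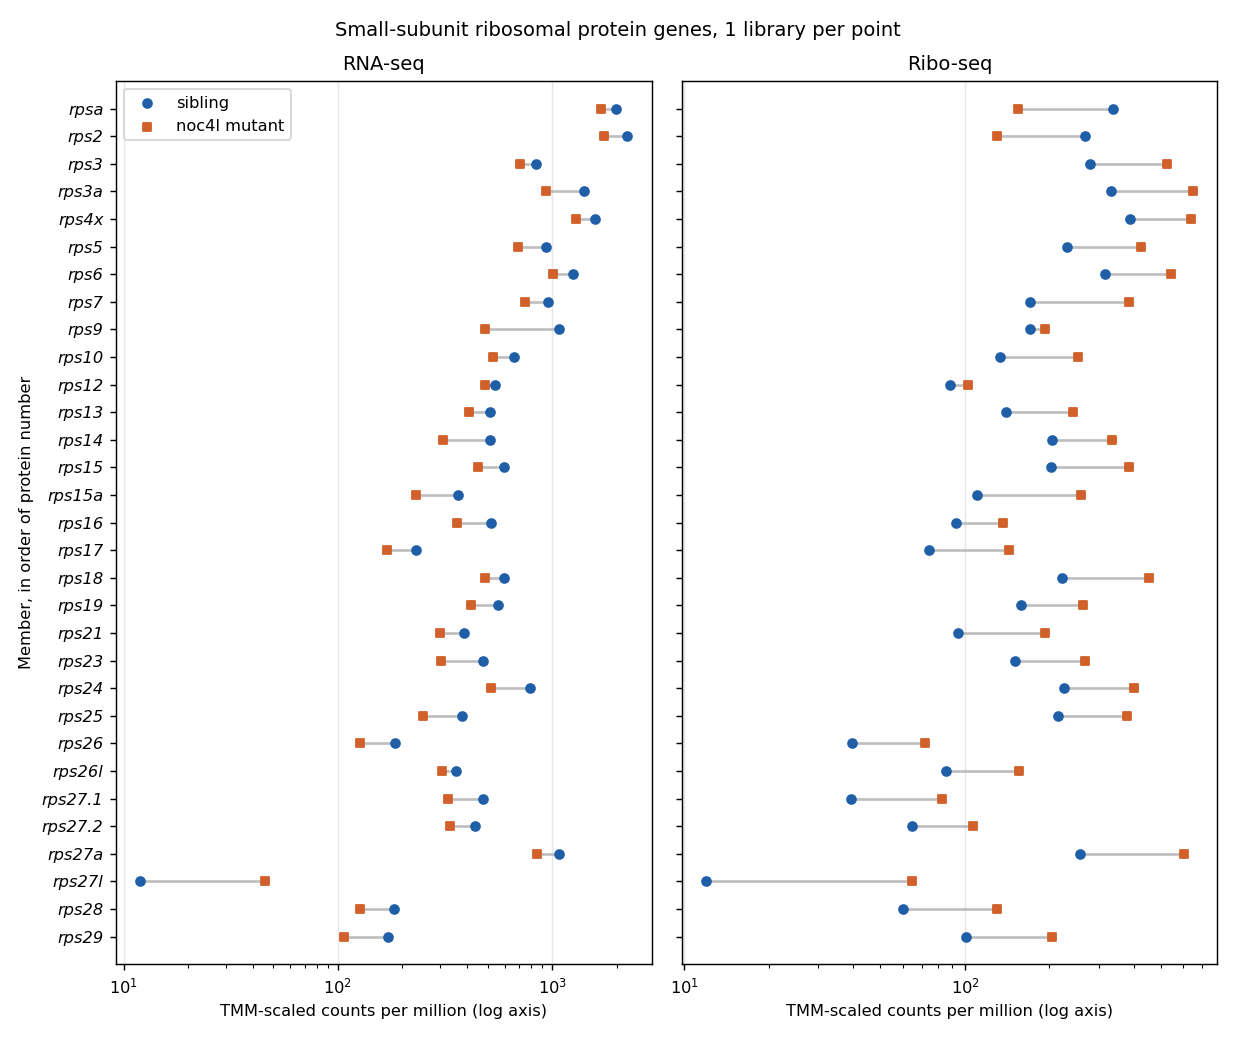
TMM-scaled CPM (counts relative to library size) of 31 of the 34 members (rows, by protein number) in RNA-seq (left) and Ribo-seq (right), on log axes, with 1 point per library (circles, sibling; squares, mutant). In RNA-seq the mutant square lies left of the sibling circle for 30 of these 31, and in Ribo-seq it lies right of it for 29, with rpsa and rps2 the exceptions.

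Footprints on the same genes were higher in mutants, relative to the typical gene on which the scaling is centred. Of the 34 members, 32 had a footprint ratio above 1, and for 31 of them the interval also lay above 1. The median log2 ratio was 0.86, against 0.02 over 15729 measured genes. At 2-fold 10 members were higher and 2 lower, beside 1.90% and 3.61% of all measured genes. The 18 next members lay between 1.5-fold and 2-fold, so that 28 were higher at 1.5-fold, beside 7.58% of all measured genes. Summed footprint counts were 54104 in siblings and 245812 in mutants. As a share of the counts outside the 4 abundant loci this is 0.908% and 1.53%.

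The genes with the highest footprint ratios were rps27l, rps27a and rps15a. rps27l had 114 footprint counts in siblings and 1642 in mutants, a log2 ratio of 2.43 (2.16 to 2.72), and ranked 20 of the 15729 genes. rps27a, which encodes a head protein made as a fusion to ubiquitin, had 2435 and 15316 counts, a log2 ratio of 1.24 (1.18 to 1.30). rps15a, a protein of the body that binds 18S rRNA early, had 1054 and 6579 (1.23, 1.13 to 1.32). Among the others past 2-fold in footprints were rps7, rps28, rps27.1, rps18, rps21 and rps29, with log2 ratios between 1.03 and 1.18.

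Taking both assays, translation efficiency was higher in mutants for most members, again relative to the typical gene. Translation efficiency is the footprint level of a gene divided by its RNA level, so a mutant to sibling ratio above 1 can come from more footprints, less RNA or both. For the members that moved with the set both parts contributed, and for most of them the footprints more than the RNA. Among those the other way round was rps9. In rps14 both parts were of similar size, with log2 ratios of -0.72 in RNA and 0.71 in footprints. At 2-fold 30 of 34 members were higher and 0 lower, beside 3.55% and 3.18% of the 14455 genes measured in both assays. The median log2 ratio was 1.33, against -0.01 over all genes. Members were 0.235% of the genes measured and 5.85% of the 513 genes called higher. The 200 genes with the highest ratio held 15 members and also 15 genes of large-subunit proteins. Across the 34 members the RNA and footprint ratios had a Pearson correlation of 0.43 and a Spearman correlation of 0.05. Without rps27l the Pearson value was -0.0005 and the Spearman value -0.04. The points share their libraries and these values are a description.

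**Figure D2:**
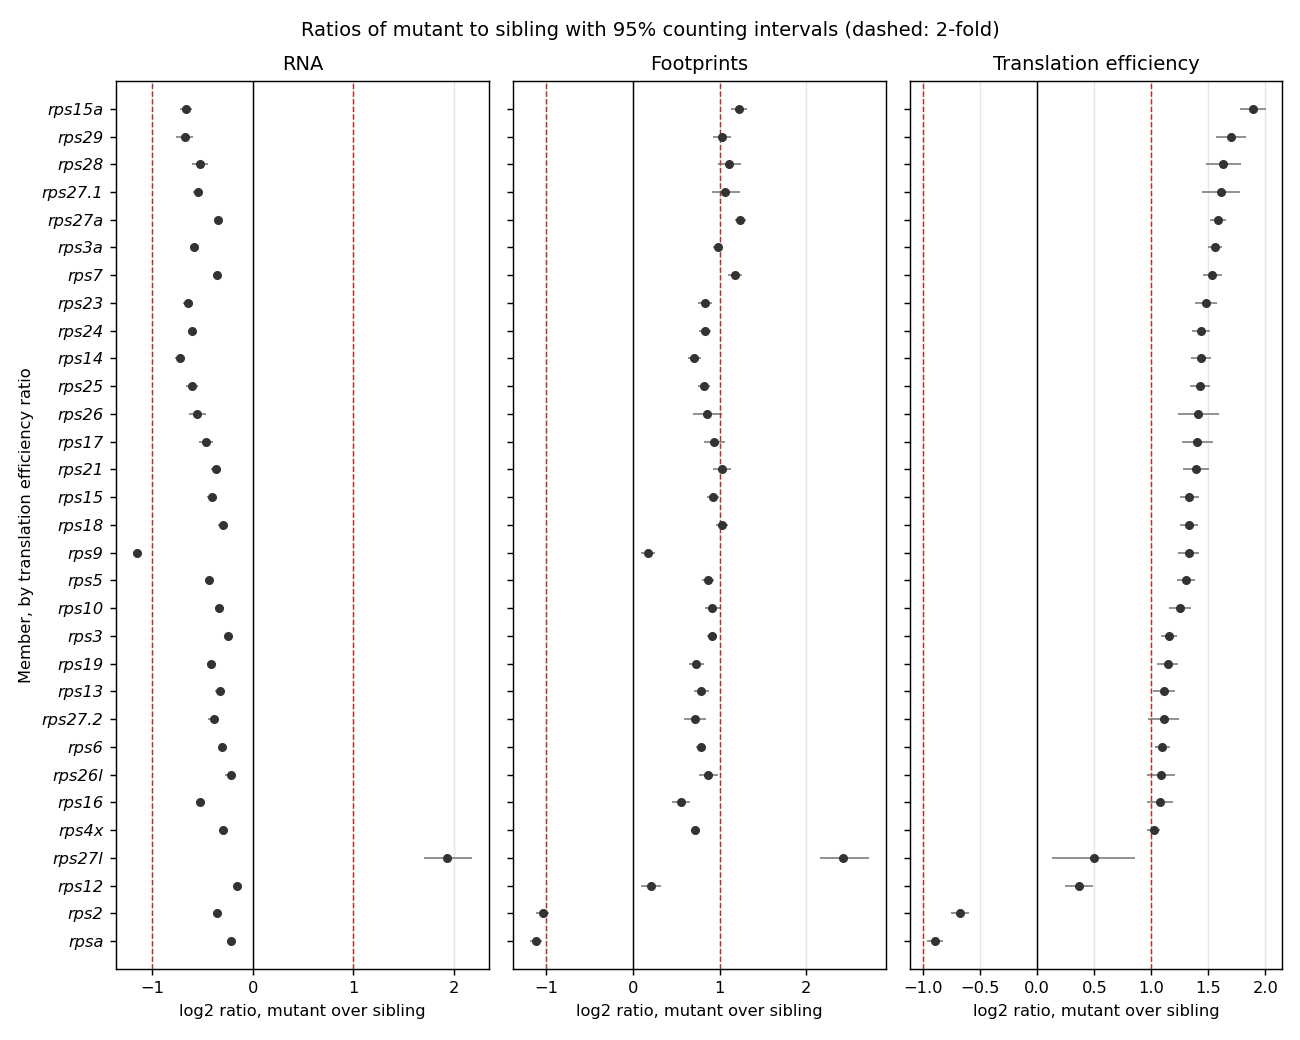
log2 ratios of mutant to sibling for 31 of the 34 members in RNA (left), footprints (middle) and translation efficiency (right), with 95% counting intervals and dashed lines at 2-fold. Rows are ordered by translation efficiency, from rpsa at -0.90 (bottom) to rps15a at 1.89 (top), and 27 of the 31 lie to the right of the 2-fold line.

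The 5 members with the highest ratios of translation efficiency were rps15a, rps29, rps28, rps27.1 and rps27a. For rps15a RNA counts were 5327 in siblings and 4121 in mutants, and its translation efficiency had a log2 ratio of 1.89 (1.78 to 2.00), rank 54 of all genes. rps29, a small zinc-binding protein of the head, had 2497 and 1915 RNA counts and 957 and 5199 footprint counts, which gave 1.70 (1.57 to 1.83). rps28, another small protein of the head, had 2658 and 2270 RNA counts and 571 and 3290 footprint counts, which gave 1.63 (1.48 to 1.78). These 3 combined RNA log2 ratios of -0.68 to -0.52 with footprint ratios above 2-fold. For rps27a the RNA counts were 15676 and 15120, and translation efficiency had 1.58 (1.51 to 1.65), and for rps27.1 it had 1.61.

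Between these and the members that stood apart lay a continuous range. rps3a, a protein of the platform, had 1.56, rps23, which lines the decoding centre, 1.48, and rps24, a body protein and a Diamond-Blackfan gene in human, 1.43. rps18, at the contact of the head with the large subunit, had 1.33, rps19, the first gene found in Diamond-Blackfan anaemia, 1.14, rps3, at the mRNA entry side of the head, 1.15, and rps6, the classic substrate of S6 kinase, 1.10. rps4x, a body protein, had 23196 and 23113 RNA counts and 3686 and 16222 footprint counts, and with 1.02 (0.96 to 1.08) it was the lowest of the 30. Its interval and those of rps16, rps26l and rps27.2 reached below the 2-fold line.

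The members that stood apart most were rpsa and rps2. Their proteins lie next to each other on the small subunit and in yeast join it late in its assembly, and the protein of rpsa is also known as a laminin receptor. rpsa had 3202 footprint counts in siblings and 3930 in mutants, a log2 ratio of -1.12 (-1.19 to -1.05). rps2 had 2543 and 3300 footprint counts, a log2 ratio of -1.04 (-1.11 to -0.96). Against them, no other member had a footprint ratio below 1. Their RNA did not stand apart in this way. rps2 had 32645 and 31179 RNA counts, a log2 ratio of -0.36 (-0.38 to -0.34), near the median of the set. The log2 ratio of translation efficiency was -0.90 (-0.97 to -0.83) for rpsa and -0.68 (-0.76 to -0.60) for rps2.

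The shares inside the set need no scaling between libraries, and show only how rpsa and rps2 moved against the other members. Of the members' RNA counts rpsa and rps2 held 17.6% in siblings and 19.1% in mutants. Of the members' footprint counts these 2 genes held 10.6% (10.4% to 10.9%, Clopper-Pearson) in siblings and 2.94% (2.87% to 3.01%) in mutants. These shares are of raw counts, not per length, and so compare genotypes within an assay and not RNA with footprints. By TPM, footprints per length as the authors deposited them, rpsa ranked 1 of the 34 members in siblings and 27 in mutants, and rps2 ranked 18 and 33. rps21, whose protein contacts that of rpsa in yeast, did not share this, with 896 and 4877 footprint counts and a log2 ratio of 1.03 (0.93 to 1.13). The sign for rpsa and rps2 depended on the unit in part. With total counts their translation efficiency stayed below 1 (log2 -0.27 and -0.05), and with the deposited FPKM and TPM it was above 1 (0.12 and 0.32), on scales where the median of all genes was at 0.62 and 0.86.

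**Figure D3:**
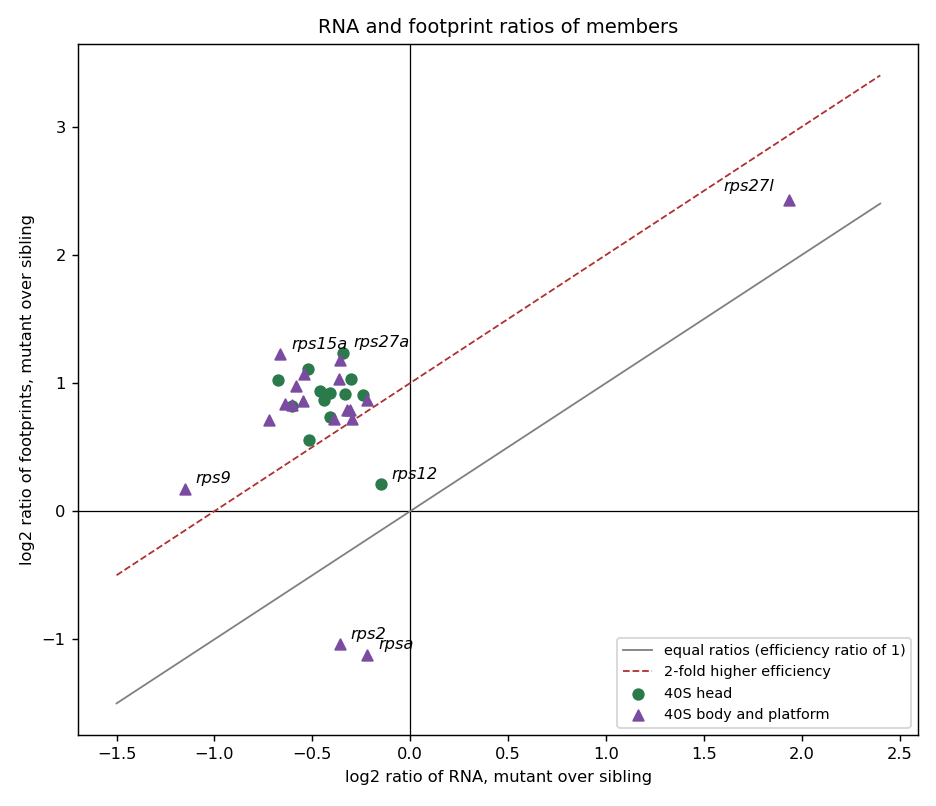
The log2 ratio of RNA for 31 of the members (horizontal) against that of footprints (vertical), mutant over sibling, with circles for proteins of the 40S head and triangles for body and platform. Most members form a cluster above the dashed line of 2-fold higher efficiency, and rpsa, rps2 and rps12 lie away from this cluster. So do rps27l, at 1.93 and 2.43, and rps9, which is above the dashed line at -1.15 and 0.17.

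rps12 was an intermediate case. It had 842 and 2603 footprint counts, a log2 ratio of 0.21 (0.10 to 0.33), and a ratio of translation efficiency of 0.36 (0.24 to 0.48). rps9 reached the level of the other members in translation efficiency by another route. It had 1623 and 4885 footprint counts, a log2 ratio of 0.17 (0.09 to 0.26), so that its translation efficiency of 1.33 (1.24 to 1.42) combined -1.15 in RNA with 0.17 in footprints. rps9 and rps12 thus had similar footprint ratios, while their ratios of translation efficiency differed.

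rps27l differed from every other member in RNA. In human, RPS27L is a close relative of RPS27. In these heads rps27l had 175 RNA counts in siblings and 821 in mutants, a log2 ratio of 1.93 (1.70 to 2.18), and its RNA ratio was above that of 99.4% of measured genes. Its ratio of translation efficiency was 0.49 (0.13 to 0.85), which is short of 2-fold, so it was not among the 30.

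The copies of rps27 shifted in share. rps27.1 had 6940 RNA counts in siblings and 5834 in mutants, and 374 and 2095 footprint counts. rps27.2 had 6346 and 5940, and 617 and 2707. In RNA rps27l held 1.30% (1.12% to 1.51%) of the counts of the 3 genes in siblings and 6.52% (6.09% to 6.96%) in mutants. In footprints it held 10.3% (8.59% to 12.3%) and 25.5% (24.4% to 26.6%). rps27.1 held 51.6% and 46.3% of RNA counts and 33.8% and 32.5% of footprint counts, and rps27.2 held 55.8% and 42.0% of footprint counts. As raw counts, not per length, these shares compare genotypes within an assay and not RNA with footprints. With the 3 genes summed, the log2 ratio was -0.39 in RNA, 1.13 in footprints and 1.52 in translation efficiency.

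The copies of rps26 kept their proportions in footprints, while in RNA the share of rps26 was lower in mutants. For rps26, whose protein sits at the mRNA exit, rps26 had 2703 and 2263 RNA counts and 378 and 1830 footprint counts, and rps26l had 5189 and 5458 and 814 and 3959. The share of rps26 in footprints was 31.7% (29.1% to 34.4%) in siblings and 31.6% (30.4% to 32.8%) in mutants, and in RNA 34.2% (33.2% to 35.3%) and 29.3% (28.3% to 30.3%). These shares are of raw counts, not per length. By FPKM, RNA of rps26 was above that of rps26l, with 413 against 239 in siblings and 298 against 217 in mutants. This order is the reverse of that of the RNA counts. It goes with gene models of unlike length, which by counts and FPKM are about 0.436 kb for rps26 and 1.44 kb for rps26l. Which copy has more RNA therefore depends on the unit. By TPM, footprints of rps26 were below those of rps26l, with 53.8 against 116 in siblings and 207 against 447 in mutants. The log2 ratios of translation efficiency were 1.41 (1.23 to 1.59) for rps26 and 1.09 (0.96 to 1.21) for rps26l. Copies are similar in sequence, and how reads that fit more than 1 copy were assigned is not stated, so values of single copies are uncertain. Some of their footprint counts were deposited as fractions, such as 374.38 for rps27.1 and 616.62 for rps27.2 in siblings. The intervals of the shares treat the rounded values as counts.

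**Figure D4:**
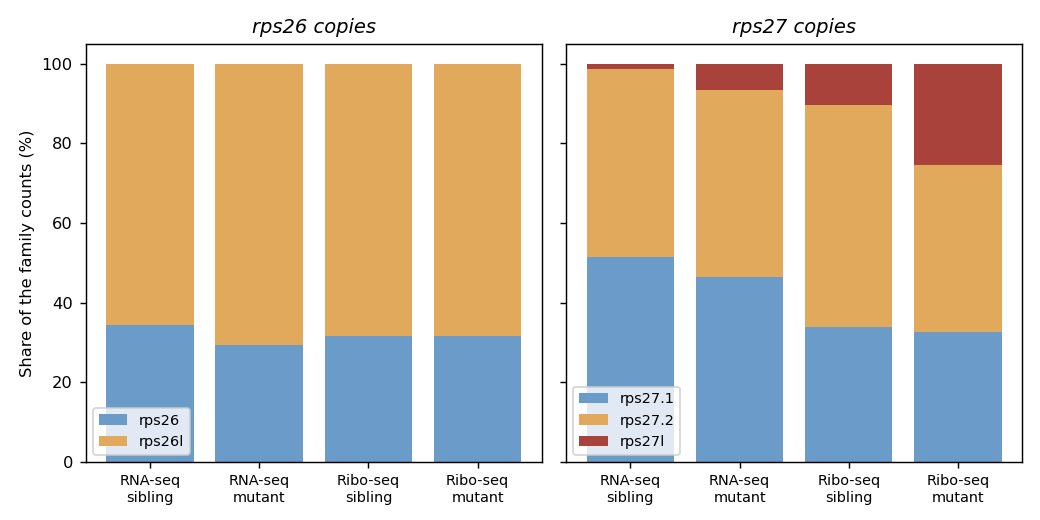
Share of raw counts, not per length (vertical, in percent), taken by each copy of rps26 and rps27 in the 4 libraries, 1 bar per library. rps27l goes from 1.30% to 6.52% in RNA-seq and from 10.3% to 25.5% in Ribo-seq.

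Place in the particle did not separate the members. The 13 proteins of the head had median log2 ratios of -0.41 in RNA, 0.92 in footprints and 1.33 in translation efficiency, and the 21 genes of body and platform -0.39, 0.83 and 1.33. At 2-fold 12 of 13 and 18 of 21 were higher in translation efficiency. The members at the low end were rps12 in the head and rpsa, rps2 and rps27l in body and platform. All 12 members whose human counterparts are Diamond-Blackfan genes were higher, with log2 ratios from 1.09 to 1.89 and a median of 1.42, beside 18 of the 22 other members (median 1.24). No test of these differences was possible, since each genotype has 1 library and genes do not replicate each other.

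Levels are compared between genes only per length. In siblings the highest footprint TPM were 317 for rpsa, 296 for rps18 and 271 for rps25, a head protein that also serves viral internal initiation, and among the low ones were 21.6 for rps27l and 53.8 for rps26. In mutants the highest were 1481 for rps18, 1304 for rps27a and 1106 for rps29. In RNA the highest FPKM in siblings was 2365, for rps2, and rps3 had 233. The low FPKM of rps3 goes with a gene model of about 3.49 kb, the length its counts and FPKM imply, whereas the set as a whole starts at 0.346 kb for rps29.

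For rps18 there were 8701 and 8662 RNA counts and 2112 and 11492 footprint counts in siblings and mutants, which gave a translation efficiency log2 ratio of 1.33 (1.25 to 1.41). For rps25 there were 5548 and 4470 RNA counts and 2038 and 9589 footprint counts, which gave 1.42 (1.33 to 1.51). rps14 had 1937 and 8458 footprint counts and 1.43 (1.34 to 1.52).

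Genes of the large subunit were higher in translation efficiency as well. Of 48 genes of its proteins, 39 were higher in translation efficiency at 2-fold and 0 lower (median log2 ratio 1.23), with 3 higher and 2 lower in footprints (median 0.74) and 2 lower in RNA (median -0.54). Of 11 measured elongation factors 0 were past 2-fold, with a median of 0.75 and a range from -0.85 for eef2a.1 to 0.96 for eef1b2, and eef1a1l1, the most abundant, had 0.85 (0.83 to 0.87). Initiation factors had 1 of 37 higher and a median of 0.31. The 28 genes of the mitochondrial small subunit had 0 past 2-fold and a median of 0.12, and 54 factors of 40S assembly had 1 higher (pno1, 1.12, 0.88 to 1.35) and 0 lower and a median of -0.21. In RNA these assembly factors had a median of 0.43, opposite in sign to that of the proteins they assemble.

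**Figure D5:**
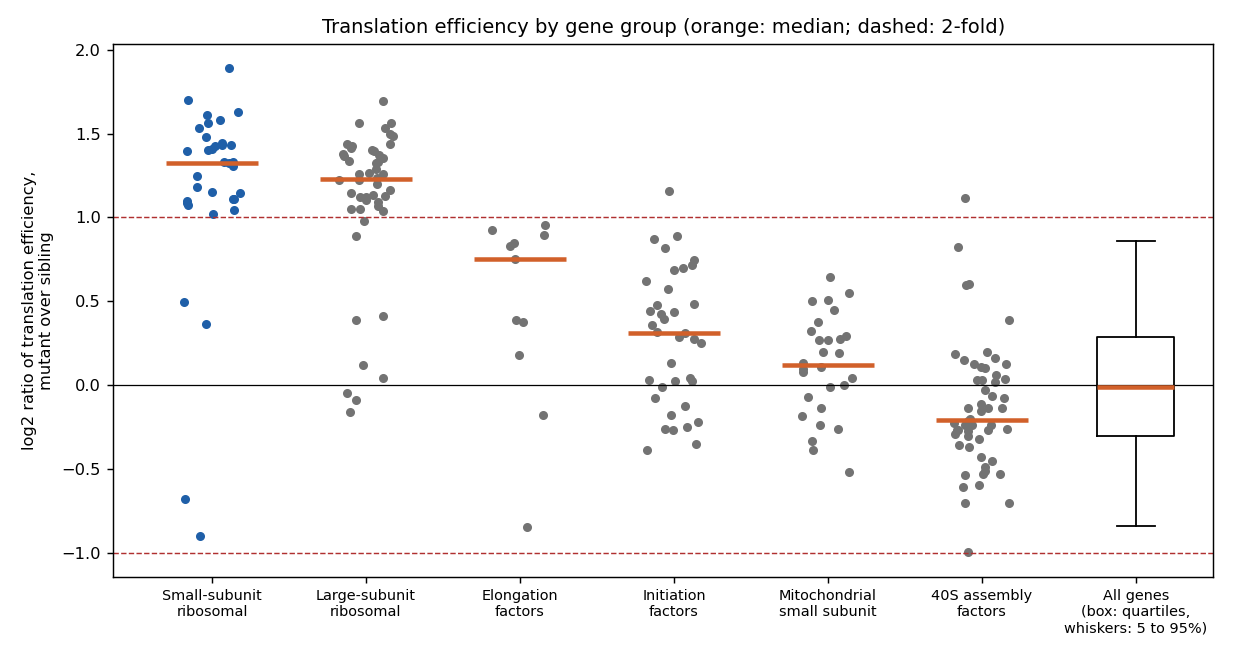
log2 ratios of translation efficiency, mutant over sibling (vertical), with 1 point per gene and an orange line at each group's median, and a box for all 14455 genes. Small-subunit members centre on 1.33 and large-subunit genes on 1.23, elongation factors on 0.75, and mitochondrial small-subunit genes and assembly factors lie near 0.

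The level of these ratios depends on how footprint libraries are scaled. Total counts add 0.71 to every footprint log2 ratio and 0.63 to every log2 ratio of translation efficiency. A scaling of libraries adds the same amount to every gene and so cannot move the distance between the median of the members and that of all genes, which was 1.34 in translation efficiency. With the deposited FPKM and TPM, another unit, it was 1.46. A change in translation shared by all genes would not show in any of these values.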

How the data were processed

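RNA-seq and Ribo-seq of zebrafish heads at 5 dpf gave 4 libraries, 1 per group, grouped by the titles in GEO. By the paper, heads for RNA-seq went into TRIzol. Those for Ribo-seq were frozen, and cell suspensions were digested with trypsin and treated with cycloheximide. The authors deposited estimated counts for each gene in both tables, with FPKM for RNA-seq and TPM for Ribo-seq. HISAT2 and featureCounts stand in the submitters' processing notes. Their versions, the genome build and the handling of rRNA and multiply mapped reads were not given in the sources used here. Deposited fold changes, P values and FDR were not used. Footprint counts that carry no gene ID (0.00303% and 0.000746% of counts) were left out.

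Counts were rounded and scaled by TMM (edgeR 4.0.16, R 4.3.3) within each assay, and log2 ratios of mutant to sibling were taken with 0.5 counts added, over the whole table. No test was possible with 1 library in each group, so genes were called by size, at 2-fold, where an assay's 2 libraries summed to 100 counts or more. The 95% interval of a ratio is exact, from the binomial split of its counts, that of a share is Clopper-Pearson, and that of translation efficiency adds the Poisson variances of its 4 counts. The rest used Python 3.11.15 with numpy 2.4.6, pandas 2.3.3, scipy 1.17.1 and matplotlib 3.10.9. Calls and intervals were tried on simulated Poisson counts, which hold counting error only and so cannot show the effect of spread between fish. Members, gene lists and tissue markers were chosen with earlier results of these data known. Members given with the counts of every library were, where reported, the copies of a protein, rpsa and rps27a, the 5 highest and 5 lowest in translation efficiency, the 3 highest and lowest in RNA and in footprints, and the 3 highest and lowest by sibling TPM. Alternatives were total counts with and without the 4 abundant loci, DESeq2 1.42.0 size factors, the deposited FPKM and TPM, other pseudocounts, count minimums and a size rule of 1.5-fold. No sequence of a member was analysed here, and 3 of the 34 members are counted but not reported here by name.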

Additional observations from a re-analysis of the deposited data

How the results depend on the processing

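No paired analysis was possible because each group has 1 library, and no library could be left out. Levels from scaled counts per length were not computed, and the lengths implied by counts and FPKM served only to describe gene models. The count of members higher in translation efficiency stayed between 26 and 32 of 34 under every alternative tried, but the share of all genes did not. It was 2.71% for the 26 with total counts without the 4 abundant loci, 20% for the 31 with total counts and 36.4% for the 32 with the deposited FPKM and TPM. The count of members with higher footprints was 10 with TMM, DESeq2 size factors and total counts without the 4 abundant loci. It was 29 with total counts and 31 with the deposited TPM and 1 added, beside 22.1% and 44.6% of measured genes, and 28 at 1.5-fold. The count with lower footprints went from 2 to 0 with total counts and to 0 with the deposited TPM. At 1.5-fold, 8 members were lower in RNA and 2 in translation efficiency (rpsa and rps2), beside 12.6% and 10.9% of measured genes. The footprint log2 ratio of rps2 was 0.040 with the deposited TPM in place of -1.04. The cause of the change with TPM was not tested, while total counts without the abundant loci gave the same 10 as TMM. A change of sign with 5 counts added was seen for the footprint ratio of 1 member, whose interval includes 0. Intervals cover counting error only, and the spread between fish was not measured.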

Other observations

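Genes related to the small subunit but outside the member rule were read as well. rack1, the scaffold protein bound to the 40S head, had 23026 RNA counts in siblings and 21729 in mutants, and 4337 and 19337 footprint counts, which gave a translation efficiency log2 ratio of 1.12 (1.06 to 1.17). faua, a copy of the gene for the ubiquitin-like fusion protein that yields Rps30, had 3335 and 3253 RNA counts and 2115 and 11806 footprint counts, which gave 1.39 (1.30 to 1.49). Its copy faub had 362 and 290 RNA counts and 98 and 325 footprint counts, which gave 0.92 (0.53 to 1.32). An assembled locus of the RNA-seq table that is annotated as RPS20 had 7822 and 6116 RNA counts, a log2 ratio of -0.65 (-0.70 to -0.60). No footprint counts were given under its ID.

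Among large-subunit genes, 3 of the 4 listed genes of the stalk did not share the higher translation efficiency. rplp0, the base of the stalk, had 34170 and 37140 RNA counts and 2236 and 5109 footprint counts, which gave -0.05 (-0.12 to 0.02). The values for rplp1 and rplp2 were 0.04 and -0.16. The other stalk gene, rplp2l, had 4202 and 4348 RNA counts and 1201 and 6806 footprint counts, which gave 1.33 (1.22 to 1.44). Outside the stalk, rpl22l1 (-0.09, -0.29 to 0.11) and rpl7l1 (0.12, -0.08 to 0.33) did not share it either. Of all 48 large-subunit genes, 39 were higher at 2-fold. The genes named here were chosen after their values were seen.

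Genes that handle or regulate ribosomal proteins had median ratios of translation efficiency near that of all genes. Of 11 measured chaperones and modifiers of ribosomal proteins, 0 were past 2-fold in translation efficiency (median log2 ratio -0.16). In RNA 1 of 13 was higher at 2-fold, and their median was 0.21, against 0.01 over all genes. The higher gene was prmt3, the methyltransferase known to modify Rps2, with 208 RNA counts in siblings and 579 in mutants, a log2 ratio of 1.18. It had 0.22 in footprints and -0.96 (-1.32 to -0.60) in translation efficiency. Of 22 measured genes of mTOR signalling and TOP mRNA control, 0 were past 2-fold in translation efficiency (median -0.07). larp1 had log2 ratios of -0.36 (-0.60 to -0.13) in RNA and -0.07 (-0.19 to 0.06) in footprints, and mtor had 0.13 (0.01 to 0.24) and 0.04 (-0.07 to 0.15).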
